A study of Mus musculus with 17 samples.

Results

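The 10 genes described here encode folliculin and its partners, the 4 Rag GTPases and central proteins of the mTORC1 complex. They are Flcn, Fnip1, Fnip2, Rraga, Rragb, Rragc, Rragd, Lamtor1, Mtor and Rptor. They were chosen by name, with earlier results of these data known. The set is 10 of the 35971 genes to which the deposited transcripts could be summed. All 10 were among the 17011 genes that passed the filter on low counts. Their RNA was measured in 17 libraries of whole kidney, each taken as 1 mouse, in 5 genotype groups. All mice carried the lsl-PRCC-TFE3 KI allele, in which a stop cassette in front of the fusion gene is removed by Cre recombinase. The 4 Cre(−) mice lacked KSP-Cre, so the cassette stays in place. Of these, replicates 1 and 2 also carried HIF1af/f and replicates 3 and 4 carried no flox allele. KSP-Cre was present in the 3 PRCC‐TFE3 KI mice without a flox allele (KI), the 4 with HIF1af/f (Hif1α KO), the 3 with HIF2af/f (Hif2α KO) and the 3 with both flox alleles (DKO). KSP-Cre is driven by the promoter of Cadherin 16, a gene of the tubule epithelium, so other cells of the kidney keep the cassette and intact Hif genes. The labels state no age, strain or treatment for these mice.

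The Rag GTPases work as pairs, with RagA or RagB bound to RagC or RagD, on the lysosome surface, where the Ragulator complex with Lamtor1 as its lipid-anchored subunit holds them. When amino acids are plentiful the pair recruits mTORC1 through its subunit Raptor, the product of Rptor, and the kinase mTOR becomes active. Folliculin, bound to Fnip1 or Fnip2, stimulates GTP hydrolysis by RagC and RagD, which allows TFE3 and TFEB to be phosphorylated by mTORC1 and kept in the cytoplasm. In the nucleus, these factors bind E-box and M-box sequences and activate genes of lysosomes and of nutrient sensing. Loss of folliculin in people causes Birt-Hogg-Dubé syndrome, which includes kidney tumours. The comparisons below address how this set of genes stood in kidneys that express a TFE3 fusion, and whether deletion of Hif1α, Hif2α or both moved it.

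The libraries held 16504419 to 24668827 counts, with a median of 18635282. The TMM factors, which correct for a few genes taking a large share of the reads, were 0.793 to 0.833 in Cre(−) kidneys and 0.974 to 1.118 in kidneys with Cre. Library numbers largely follow the groups, so genotype and library number cannot be told apart. RNA of the floxed genes persisted. Hif1a stood at 163 to 198 CPM in Hif1α KO kidneys and 184 to 232 CPM in KI kidneys, and Epas1, the gene of Hif2α, at 136 to 149 CPM in Hif2α KO kidneys and 173 to 192 CPM in KI kidneys. Neither comparison passed the threshold (edgeR adjusted p of 0.372 and 0.0788), and counts over a whole gene do not show whether the floxed part was removed. The summed level of 6 proximal tubule markers was 9719 to 11490 CPM in Cre(−) kidneys and 675 to 781 CPM in KI kidneys, and all 6 genes were lower by the test. A list of 3 macrophage markers summed to 98.9 to 113 CPM in Cre(−) kidneys and 1161 to 1248 CPM in KI kidneys, with 2 of 3 genes called higher. That sum was mostly Cd68, a protein of late endosomes and lysosomes. Adgre1 stood at 3.91 to 6.31 CPM in Cre(−) kidneys and 12.0 to 17.8 CPM in KI kidneys, without overlap. Csf1r stayed between 82.8 and 101 CPM in the KI and Cre(−) kidneys. KI replicate 2 stood apart in 4 adipocyte markers, which summed to 420.9 CPM there and to 2.84 to 62.2 CPM in the other 16 libraries. None of the genes of these lists was at 0 in all libraries of a group. The part of a changed cell make-up in the results below was not tested, and in whole kidney fewer cells of a type and less RNA per cell cannot be told apart.

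Flcn and both of its partner genes were higher in KI kidneys than in Cre(−) kidneys. In CPM, the counts relative to the TMM-scaled library size, Flcn (chromosome 11 of GRCm38 from 59791408 to 59810016) stood at 43.3, 45.025, 37.8 and 36.7 without Cre and at 96.5, 101 and 110.4 in the KI mice. The ranges were far apart, and the difference was 1.33 on the log2 scale (SE 0.09), or 2.52-fold, with an edgeR adjusted p of 1.79e-08. Fnip2, on chromosome 3 from 79455974 to 79567796, had 132, 136, 123 and 126 CPM without Cre and 369, 368 and 422 CPM with the active fusion. All KI kidneys stood above all Cre(−) kidneys, and the log2 difference was 1.58 (SE 0.12, edgeR adjusted p 4.52e-08). Fnip1, on chromosome 11 from 54438199 to 54518235, rose less, from 57.3, 65.0, 68.9 and 57.1 CPM to 79.0, 96.0 and 88.9 CPM. Its log2 difference was 0.50 (SE 0.10, edgeR adjusted p 0.000663), and its groups also did not overlap.

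Of the Rag genes, Rragd, Rragc and Rragb were higher and Rraga did not pass the test. Rragd, on chromosome 4 from 32983037 to 33022180, showed the largest log2 difference of the 10 genes in this comparison. Its level was 89.5, 94.3, 67.6 and 59.9 CPM without Cre against 293, 312 and 339 CPM in KI mice. The log2 difference was 2.02 (SE 0.14), or 4.04-fold, with an edgeR adjusted p of 1.68e-08. Rragc, the paralogue of Rragd on chromosome 4 from 123917446 to 123936997, had 73.1, 76.4, 69.2 and 65.2 CPM against 166, 187 and 184 CPM. Its ranges were separate, with a log2 difference of 1.33 (SE 0.08, edgeR adjusted p 4.70e-09). Rragb, on chromosome X from 153139981 to 153171943, was the least abundant member and rested on 37 to 178 counts per library. Its values were 3.22, 2.41, 3.05 and 2.34 CPM without Cre, and 10.2, 7.49 and 8.05 CPM in KI mice, with a log2 difference of 1.64 (SE 0.18, edgeR adjusted p 1.77e-06). Its paralogue Rraga, on chromosome 4 from 86575668 to 86577285, had 48.0, 48.9, 45.3 and 48.7 CPM against 53.7, 53.0 and 50.6 CPM. The KI values were all above the Cre(−) values, but the log2 difference was 0.14 with a 95% interval of 0.0017 to 0.27 and an edgeR adjusted p of 0.0743.

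Lamtor1 was higher in KI kidneys, Mtor was lower, and Rptor did not pass the test. Lamtor1, on chromosome 7 from 101905904 to 101926675, had 58.8, 54.0, 52.6 and 61.2 CPM without Cre, and 97.7, 83.6 and 87.8 CPM in KI mice. The groups were separate, with a log2 difference of 0.66 (SE 0.09, edgeR adjusted p 1.06e-05). Mtor, which encodes the kinase itself on chromosome 4 from 148448611 to 148557683, had 214 and 225 CPM in the 2 Cre(−) kidneys with HIF1af/f and 279.6 and 288 CPM in the 2 without, against 94.3, 127 and 114 CPM in KI kidneys. It fell by 1.17 on the log2 scale (SE 0.12, edgeR adjusted p 4.72e-07), that is 2.25-fold, and every KI kidney was below every Cre(−) kidney. Rptor, on chromosome 11 from 119602905 to 119899576, had 45.5, 44.7, 47.9 and 44.8 CPM against 47.6, 47.6 and 43.3 CPM. These ranges overlapped, and the log2 difference was 0.01 with a 95% interval of −0.13 to 0.16 (edgeR adjusted p 0.866).

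In all, 7 of the 10 genes were called higher and 1 lower in KI kidneys, where 31.6% of all genes tested were called higher and 29.3% lower. The groups did not overlap for 8 genes that were higher and 1 that was lower, beside 28.9% and 27.7% of all genes. The median log2 difference of the 10 genes was 1.00, beside 0.03 over all genes tested. The sizes differed with the Cre(−) mice used. Against the Cre(−) mice with HIF1af/f alone, the log2 difference was 1.78 for Rragd and −0.97 for Mtor, and against those without a flox allele it was 2.31 and −1.34. These are 2 mice each, and flox state, library number and the spread between mice cannot be told apart. The scale mattered for Rraga and Rptor. On log2(TPM + 1) with limma, the median of all genes itself moved to 0.378 in this comparison, all 10 genes were called, and 9 were higher, Rraga by 0.59 and Rptor by 0.40. Taken relative to that median, Rraga was at 0.21, Rptor at 0.02 and Mtor at −1.08, and the 8 genes called on counts kept their side.

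**Figure D1:**
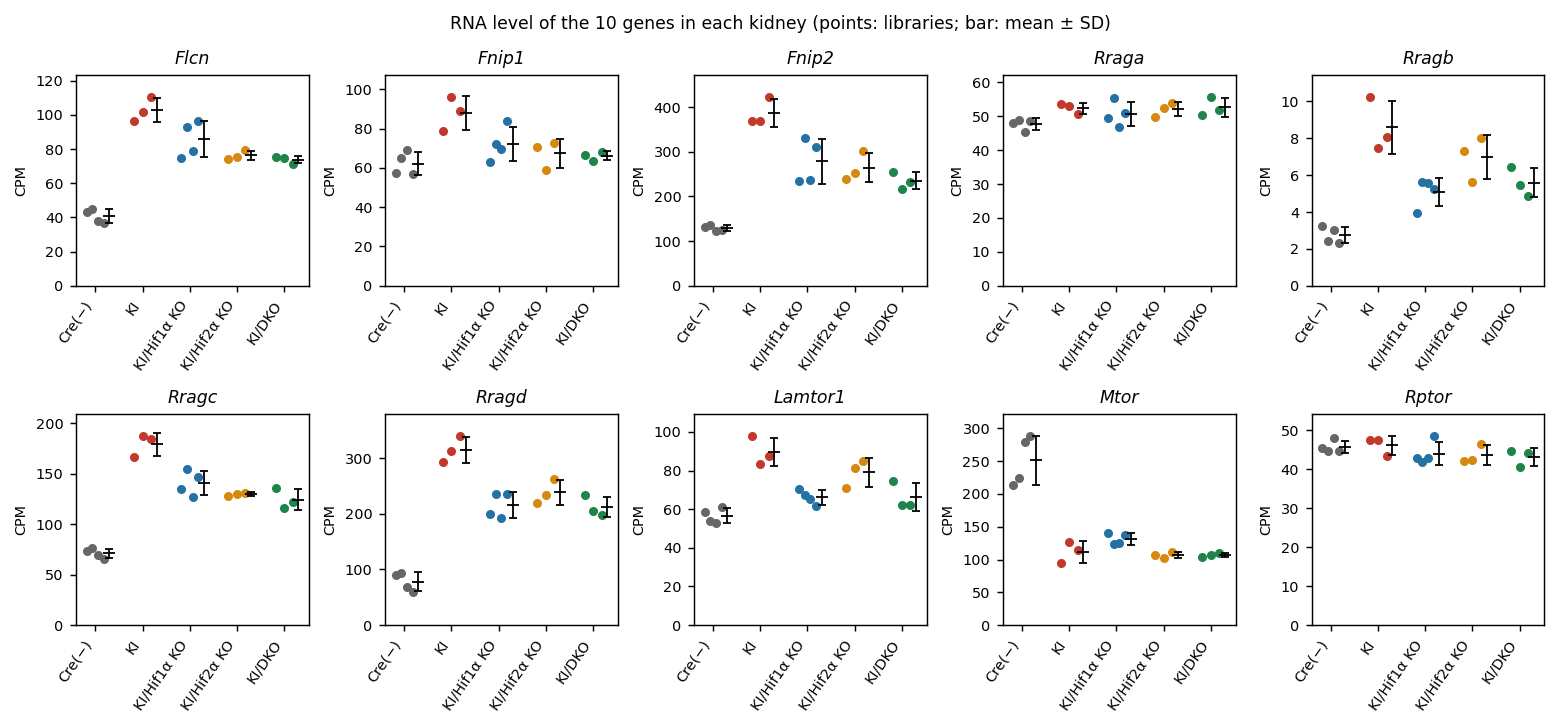
Level of each of the 10 genes in CPM (vertical axes from 0) in the 17 kidneys, grouped by genotype, where points are libraries and the black bars are the group mean ± SD. Flcn, Fnip2, Rragb, Rragc and Rragd stand higher in every group with Cre than in Cre(−) kidneys, Mtor stands lower, and Rraga and Rptor lie within a narrow band.

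Promoters of these genes were examined because TFE3 binds E-box and M-box sequences and Hif factors bind a shorter core. A window from 250 bases before to 50 after the RefSeq start on GRCm38.p6 was read for each gene, and all 10 genes had one. The E-box core CACGTG occurred in 7.15% of 32851 such windows, and in those of Rragb, Rragc, Fnip1 and Lamtor1. It reads the same on both strands. Rragb held it at 3 places, beginning at −127, −36 and −3 with 0 as the first transcribed base, and 0.0883% of all windows held it at 3 or more places. M-box forms (TCACGTGA, TCATGTGA, TCACATGA or TCATATGA, on either strand) occurred in 2.26% of windows and in those of Fnip1, Fnip2 and Lamtor1. TCACGTGA includes the E-box core, and no member held it. The stretches that carry these matches upstream of the start are shown on the strand of each gene, with E-box cores and M-box forms in capitals. They are Rragb (chrX:153139818-153139957, plus strand, without the match at −3), Rragc (chr4:123917293-123917372, plus), Fnip1 (chr11:54438074-54438133, plus), Lamtor1 (chr7:101905727-101905796, plus) and Fnip2 (chr3:79567767-79567794, minus).
Rragb: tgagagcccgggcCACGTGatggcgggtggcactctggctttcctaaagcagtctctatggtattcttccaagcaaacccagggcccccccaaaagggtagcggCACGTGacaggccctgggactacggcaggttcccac
Rragc: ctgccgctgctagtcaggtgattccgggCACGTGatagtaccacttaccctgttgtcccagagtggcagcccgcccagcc
Fnip1: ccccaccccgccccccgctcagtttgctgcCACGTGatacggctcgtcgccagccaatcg
Lamtor1: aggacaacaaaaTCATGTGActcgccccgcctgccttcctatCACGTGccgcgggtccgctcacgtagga
Fnip2: gccggctccgTCATATGAccggccggcg

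In GENCODE M21 the Rragb, Rragc and Fnip1 stretches lie outside annotated genes, and the Lamtor1 stretch lies in an intron of Tomt on the opposite strand. The 28 bases of Fnip2 fall in the first exon, in the 5′ untranslated region, because GENCODE starts that gene further upstream than RefSeq does. The windows of Flcn and Rragd, which were both higher in KI kidneys, and of Mtor, which was lower, held neither an E-box core nor an M-box form. This says only that these letters are not in the window. The hypoxia response cores were also counted on both strands. ACGTG, which every E-box core includes, was in 19.6% of all windows and in 5 of the 10, and GCGTG was in 32.4% and in 7 of the 10. The shares are over all windows, which were not matched to the members for base composition or expression, and no test was run on these counts. No binding data were analysed here.

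**Figure D2:**
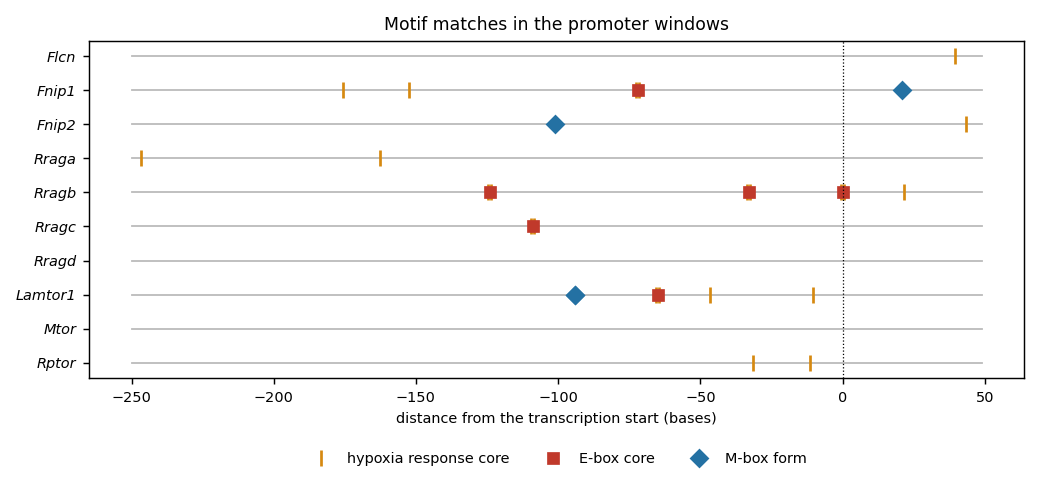
Matches to the E-box core (red squares), M-box forms (blue diamonds) and hypoxia response cores (orange ticks) in the 300 bases around the start of the 10 genes, with the distance from the first transcribed base in bases on the horizontal axis. Rragb has 3 E-box cores, and the rows of Mtor and Rragd are empty.

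Levels of different genes can be compared in TPM, which corrects for transcript length. In Cre(−) kidneys the mean levels, from high to low, were 58.5 TPM for Lamtor1, 41.5 for Mtor, 34.6 for Rragc, 33.9 for Rraga, 23.8 for Fnip2, 18.2 for Rragd, 15.1 for Flcn, 11.1 for Fnip1, 8.47 for Rptor and 1.47 for Rragb (n = 4). In KI kidneys the order was Lamtor1 at 129 TPM, Rragc at 119, Fnip2 at 101, Rragd at 99.3, Flcn at 53.8, Rraga at 51.5, Mtor at 24.97, Fnip1 at 22.0, Rptor at 11.5 and Rragb at 7.01 (n = 3). Mtor moved from second to seventh place. Lamtor1 stayed first and Rragb stayed last.

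Because the Rag and Fnip genes come in pairs whose products can take the same place in a complex, the TPM ratio within each pair was compared between the 13 kidneys with Cre and the 4 without. The ratio of Rragd to Rragc was 0.637, 0.658, 0.404 and 0.407 in the Cre(−) kidneys and 0.672 to 0.900 in kidneys with Cre, a difference of 0.63 in mean log2 ratio. The ranges did not overlap, although the Cre(−) kidneys with HIF1af/f came close to the lowest kidney with Cre. Over 5 other settings, which included Cre(−) mice of each flox state alone, the difference ranged from 0.29 to 0.96. The ratio of Rragb to Rraga was 0.0339 to 0.0475 without Cre and 0.0602 to 0.143 with Cre, a 2.35-fold difference. The ratio of Fnip2 to Fnip1 was 1.88 to 2.32 without Cre and 3.50 to 4.98 with Cre, a 1.92-fold difference. Each of the 3 tests gave an exact permutation p of 0.00084 (two-sided, 0.00084 after Benjamini-Hochberg adjustment over the 3 ratios), which is the smallest these group sizes allow. Within the kidneys with Cre, the mean Rragb to Rraga ratio was 0.136 ± 0.008 in KI (SD, n = 3), 0.083 ± 0.017 in Hif1α KO (n = 4), 0.112 ± 0.020 in Hif2α KO (n = 3) and 0.091 ± 0.013 in DKO kidneys (n = 3). Its 3 KI values, from 0.128 to 0.143, lay above all Hif1α KO and DKO values and overlapped those of Hif2α KO kidneys.

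**Figure D3:**
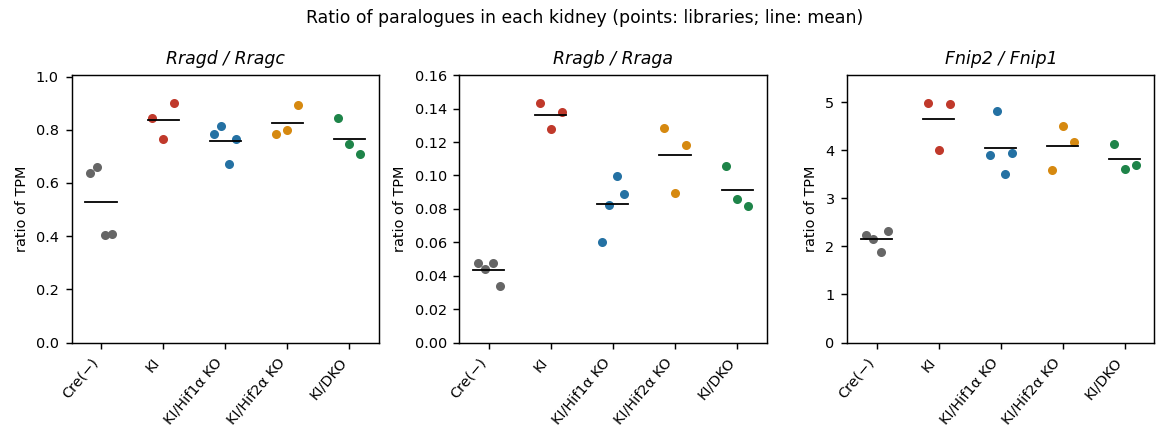
Ratio of the TPM of Rragd to Rragc, Rragb to Rraga and Fnip2 to Fnip1 (vertical axes from 0) in the 17 kidneys by genotype, where points are libraries and lines are group means. In each panel the 4 Cre(−) points lie below the 13 points of kidneys with Cre.

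The gene sums rest on several transcripts for some members. Flcn-202, a protein-coding transcript, held 62.1% of the Flcn TPM on average over the 17 libraries, and Flcn-205, annotated as a retained intron, held 21.9%. The retained intron held 22.9% to 32.1% in Cre(−) kidneys and 16.0% to 24.8% in kidneys with Cre. Retained introns also held 31.7% of Fnip2 (Fnip2-205) and 17.3% of Mtor (Mtor-204). For Fnip2 the share ran the other way, with 24.2% to 30.2% in Cre(−) kidneys and 28.4% to 36.3% in kidneys with Cre. For Mtor it was 15.8% to 32.0% and 5.55% to 26.4%, and for all 3 genes these ranges overlapped. When only protein-coding transcripts were counted, the log2 difference between KI and Cre(−) kidneys was 1.51 for Flcn and −1.16 for Mtor, and both were again called. Rptor was divided between the coding Rptor-201, with 46.0%, and Rptor-211, annotated for nonsense-mediated decay, with 47.0%. Rragb-201 held 80.2% of Rragb, Rragc-201 held 86.95% of Rragc and Rragd-203 held 79.4% of Rragd. Fnip1-201 held 97.5% and Lamtor1-201 held 98.2% of their genes, and Rraga has a single listed transcript. Of the distinct 75-base words in the transcripts of Rraga, Rragb, Rragc and Rragd, none was shared with another gene. Lamtor1 shared 3.88% of its words and lies opposite to Lrrc51 over 18.7% of its exonic bases. The library kit keeps strand, but the strand setting of the counting is not given in the sources used here.

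Deletion of Hif1α in KI kidneys went with lower levels of several members. In Hif1α KO against KI kidneys, 5 of the 10 genes were called lower and 0 higher, where 2.86% of all genes tested were called lower and 2.57% higher. For 6 members all Hif1α KO kidneys were below all KI kidneys, beside 10.3% of all genes. Lamtor1 had 70.6, 67.3, 65.2 and 61.6 CPM in Hif1α KO kidneys, all below the 3 KI kidneys, and fell by 0.44 on the log2 scale (SE 0.09, edgeR adjusted p 0.0146). Rragb had 3.94, 5.61, 5.58 and 5.23 CPM and fell by 0.75 (SE 0.18, edgeR adjusted p 0.0263), the largest difference of the 10 in this comparison. Rragc, at 135, 154, 127 and 146 CPM, fell by 0.35 (SE 0.08, edgeR adjusted p 0.0252). For these genes too, the Hif1α KO and KI kidneys did not overlap. Rragd, at 200.02, 236, 192 and 235 CPM, fell by 0.54 (SE 0.14, edgeR adjusted p 0.0345), and Fnip2, at 235, 332, 236 and 311 CPM, fell by 0.47 (SE 0.12, edgeR adjusted p 0.0357). Flcn itself had 74.6, 93.1, 79.1 and 96.5 CPM, the highest of which all but met the lowest KI kidney, with a log2 difference of −0.26 and a 95% interval of −0.46 to −0.06 (edgeR adjusted p 0.118). For Fnip1 it was −0.29 (edgeR adjusted p 0.124) and for Mtor 0.24 (edgeR adjusted p 0.237). Lamtor1 passed in all 17 fits that each left out a library. The count of called members fell from 5 to 2 without KI replicate 1, 2 or 3 and to 1 without Hif1α KO replicate 1 or 3. The macrophage markers summed to 599 to 831 CPM in Hif1α KO kidneys, against 1161 to 1248 CPM in KI kidneys, with 1 of 3 genes called higher and 1 lower. Cd68 was lower, at 476.5 to 732 CPM against 1061 to 1151 CPM, while Adgre1 was above every KI kidney, at 18.2 to 26.8 CPM against 12.0 to 17.8 CPM, and Csf1r was at 80.3 to 104.5 CPM against 82.8 to 84.6 CPM. The sum of 2 thick ascending limb markers was 2041 to 4175 CPM against 791 to 1422 CPM, and both were called higher. The 6 proximal tubule markers summed to 825 to 2062 CPM against 675 to 781 CPM, with 3 of 6 called higher. Of 3 fibroblast markers, 1 was called higher. The part of these cell types in the results was not tested.

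With Hif2α deleted, fewer members passed the test. In Hif2α KO against KI kidneys, 2 of the 10 genes were called lower and 0 higher, where 0.647% of all genes tested were called lower and 0.741% higher. For 5 members all Hif2α KO kidneys were below all KI kidneys, beside 10.7% of all genes. Rragc had 127, 130.3 and 131 CPM, and fell by 0.47 (SE 0.09, edgeR adjusted p 0.0231). Flcn had 74.3, 75.4 and 79.2 CPM, and fell by 0.43 (SE 0.10, edgeR adjusted p 0.0489). All Hif2α KO values of both genes were below all KI values. Fnip2, at 240.2, 252 and 301 CPM, was also separate from KI kidneys, with a log2 difference of −0.55 that missed the threshold (SE 0.13, edgeR adjusted p 0.0518). Rragd, at 219.95, 233 and 263 CPM, differed by −0.40 (edgeR adjusted p 0.167), Fnip1 by −0.38 (0.0901), Rragb by −0.30 (0.409) and Lamtor1 by −0.18 (0.310). These calls were fragile. Flcn passed in 2 of 17 fits that each left out a library, those without KI replicate 1 and without Hif1α KO replicate 1, and elsewhere its edgeR adjusted p was up to 0.211. Rragc lost its call without KI replicate 2 or 3 or any of the 3 Hif2α KO replicates, with the adjusted p up to 0.121. The number of members called was 4 without KI replicate 1, and 0 of 10 by edgeR without KI replicate 2 or 3 or any Hif2α KO replicate. It was 1 in the 9 fits without any one of the Cre(−) or DKO replicates or without Hif1α KO replicate 3 or 4. DESeq2 called 4, adding Fnip1 and Fnip2. It also called more genes in all, 483 lower and 532 higher of 16004, where edgeR called 110 and 126 of 17011. Macrophage markers summed to 731 to 895 CPM in Hif2α KO kidneys, with 0 of 3 genes called in either direction. Cd68 was below every KI kidney, at 616 to 784 CPM, whereas Adgre1, at 22.2 to 27.7 CPM, and Csf1r, at 89.3 to 113 CPM, were above every KI kidney. The 2 thick ascending limb markers summed to 1887 to 3480 CPM, with 1 of 2 called higher. The 6 proximal tubule markers summed to 628 to 1813 CPM, with 0 of 6 called. Of 3 fibroblast markers, 1 was called higher.

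In DKO kidneys 7 of the 10 genes were called lower than in KI kidneys and 0 higher, where 6.19% of all genes tested were called lower and 6.53% higher. For 7 members all DKO kidneys were below all KI kidneys, beside 17.2% of all genes. Fnip2 had 255, 218 and 232 CPM, and fell by 0.72 on the log2 scale (SE 0.13, edgeR adjusted p 0.0048), or 1.65-fold. Rragb had 6.43, 5.48 and 4.88 CPM, and fell by 0.62 (SE 0.19, edgeR adjusted p 0.0471). Rragd, at 233, 206 and 198 CPM, fell by 0.57 (SE 0.15, edgeR adjusted p 0.024), and Rragc, at 136, 116 and 122 CPM, by 0.53 (SE 0.09, edgeR adjusted p 0.00293). These genes lay below all KI kidneys in every DKO kidney. Flcn, at 75.5, 74.7 and 71.5 CPM, fell by 0.48 (SE 0.10, edgeR adjusted p 0.00905). Lamtor1, at 74.5, 62.0 and 62.3 CPM, fell by 0.44 (SE 0.10, edgeR adjusted p 0.0104). Fnip1, at 66.6, 63.6 and 68.3 CPM, fell by 0.41 (SE 0.11, edgeR adjusted p 0.0282). Rraga, Mtor and Rptor were not called, with log2 differences of 0.005, −0.07 and −0.10. Flcn, Fnip2 and Rragc passed in all 17 fits that each left out a library, whereas Rragb passed in 5. The count fell to 4 without KI replicate 2 or 3 and to 3 without DKO replicate 2 or 3. Macrophage markers summed to 466 to 688 CPM in DKO kidneys, with 1 of 3 genes called higher and 1 lower. Cd68 was lower than in KI kidneys, at 348.5 to 577 CPM, and Adgre1 was above every KI kidney, at 20.6 to 27.3 CPM. The 2 thick ascending limb markers summed to 2607 to 4279 CPM, and both were called higher. The 6 proximal tubule markers summed to 1174 to 1674 CPM, with 3 of 6 called higher. Also called higher were 2 of 2 collecting duct principal cell markers, 2 of 3 fibroblast markers and 1 of 2 distal convoluted tubule markers.

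**Figure D4:**
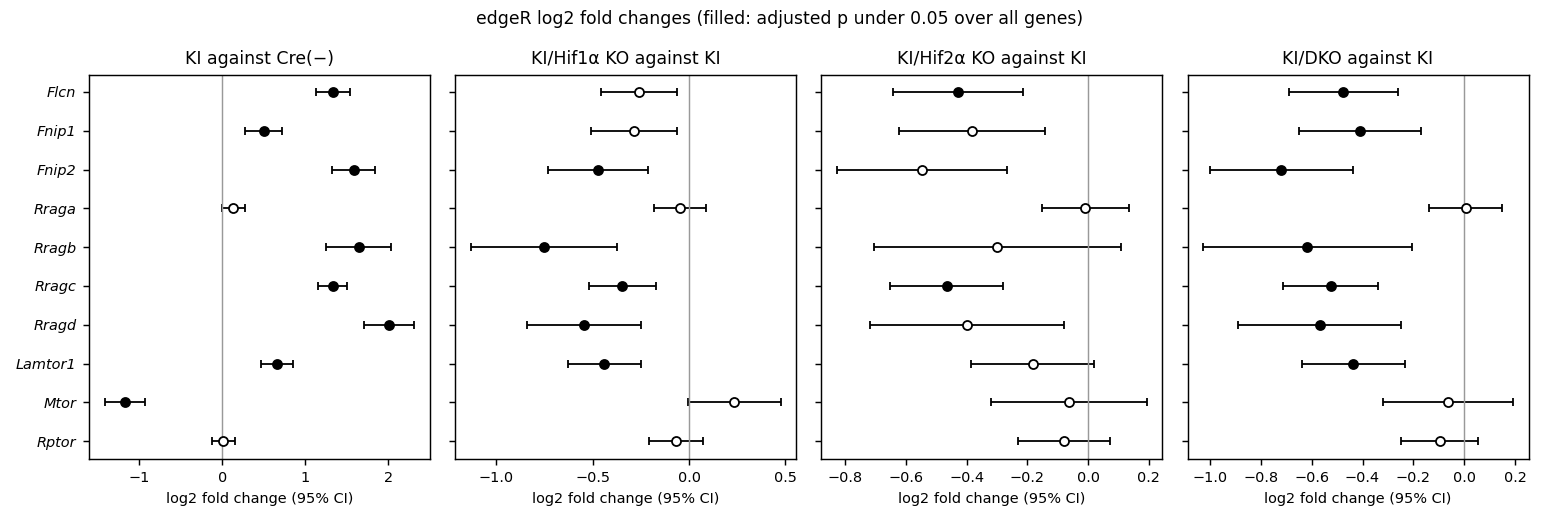
Log2 fold change (horizontal axes, scaled per panel) with its 95% confidence interval for the 10 genes in 4 comparisons, where filled points passed an adjusted p of 0.05 over all genes tested. The filled points number 8 for KI against Cre(−), and 5, 2 and 7 for Hif1α KO, Hif2α KO and DKO against KI.

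The 3 comparisons with KI share the KI kidneys, so a gene that was high in those 3 mice would be lower in each. The single knockouts were therefore also compared with each other. No member was called between Hif1α KO and Hif2α KO kidneys by edgeR or DESeq2, where 0.429% of all genes tested were called in either direction, and 3 of the 10 members had an unadjusted p under 0.05, beside 14.95% of all genes tested. Rragb was lower in Hif1α KO by a log2 difference of −0.45 with a 95% interval of −0.83 to −0.07 (edgeR adjusted p 0.245), with no overlap between the groups. Lamtor1 differed by −0.26 with an interval of −0.44 to −0.07 (edgeR adjusted p 0.183), and Mtor by 0.30 with an interval of 0.06 to 0.54 (edgeR adjusted p 0.224). For Flcn the difference was 0.17 with an interval of −0.03 to 0.37. In the test of whether the effect of both deletions departed from the sum of the single effects, no member was called by edgeR or DESeq2. Of all 17011 genes edgeR called 0, or 0.0% (1013 at an unadjusted p under 0.05), and DESeq2 called 31. The 1 member with an unadjusted p under 0.05 was Rragc, at 0.29 (SE 0.12, edgeR adjusted p 0.811).

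Although several members were lower in the knockouts than in KI kidneys, most stayed above the level of kidneys without Cre. Against Cre(−) kidneys, 6 of the 10 genes were called higher and 1 lower in each of the 3 knockout groups. Over all genes tested, 31.9%, 32.0% and 30.4% were called higher and 30.1%, 29.9% and 27.9% lower in Hif1α KO, Hif2α KO and DKO kidneys. Rragd had log2 differences of 1.47 in Hif1α KO, 1.62 in Hif2α KO and 1.45 in DKO kidneys, beside 2.02 in KI kidneys. Flcn had 1.08, 0.90 and 0.86, beside 1.33. Fnip2 had 1.11, 1.04 and 0.86, Rragc 0.99, 0.87 and 0.81, and Rragb 0.89, 1.34 and 1.03. Each knockout kidney was above each Cre(−) kidney for these 5 genes. The share of all genes that stood apart in this way was not counted for the knockout groups. In KI kidneys it was 28.9%. Mtor was lower, by −0.93, −1.23 and −1.23. Fnip1 was no longer called, with log2 differences of 0.22, 0.12 and 0.09 (edgeR adjusted p of 0.066, 0.339 and 0.474). In 2 of 12 other settings Fnip1 did pass in each group, with log2 differences up to 0.65, 0.65 and 0.66. On log2(TPM + 1), the medians of all genes were themselves 0.353, 0.427 and 0.455. On log2(TPM + 0.1) these medians were 0.451, 0.531 and 0.563. Lamtor1 was near the threshold in Hif1α KO (0.22, edgeR adjusted p 0.0283) and DKO kidneys (0.23, edgeR adjusted p 0.0399). The first of these calls was lost without Cre(−) replicate 2 (0.20) or 3 (0.19) or Hif1α KO replicate 1 (0.20) or 2 (0.22), and the second without Cre(−) replicate 2 (0.21) or 3 (0.19) or DKO replicate 1 (0.14). In Hif2α KO kidneys Lamtor1 was higher by 0.48 (edgeR adjusted p 0.000239).

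The order of the group means differed between genes. For Flcn, Fnip2 and Rragc the order was KI, Hif1α KO, Hif2α KO, DKO and Cre(−), with means for Flcn of 103 ± 7.05, 85.8 ± 10.6, 76.3 ± 2.59, 73.9 ± 2.13 and 40.7 ± 4.07 CPM (SD, n = 3, 4, 3, 3 and 4). The KI range and the Cre(−) range stood apart from their neighbours in that order for these genes, while the ranges of neighbouring knockout groups overlapped. For Rragd, Hif2α KO kidneys came second with 239 ± 22.2 CPM and overlapped Hif1α KO kidneys with 216 ± 23.2 CPM. For Rragb and Lamtor1 the order was KI, Hif2α KO, DKO, Hif1α KO and Cre(−), and only Hif1α KO and Cre(−) were neighbours without overlap. Rraga and Rptor spanned 45.3 to 55.6 CPM and 40.5 to 48.4 CPM over all 17 kidneys, and all neighbouring groups overlapped.

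Other genes of the pathway were taken from 9 lists with 43 annotated genes, all of which passed the filter. In KI against Cre(−) kidneys 9 were called higher and 11 lower, where 31.6% and 29.3% of all genes tested were, and their median log2 difference was −0.08, beside 1.00 for the 10 members and 0.03 for all genes. Of the Ragulator list, 3 of 5 genes were called lower and 1 higher. Lamtor5 fell by 1.05 (SE 0.14) and Lamtor2 by 0.51, while Lamtor3 rose by 0.50, beside the rise of 0.66 of Lamtor1. Of the other mTORC1 subunits, Mlst8 rose by 0.40, Akt1s1, which encodes the inhibitory subunit PRAS40, rose by 0.31, and Deptor, another inhibitory subunit, fell by 1.11, from 131 to 168 CPM in the 4 Cre(−) kidneys to 65.4 to 81.3 CPM in the 3 KI kidneys. For mTORC2, only Prr5l of 4 genes was called, with a rise of 0.92.

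Among upstream regulators, Tsc1, a subunit of the complex that turns off Rheb, rose by 1.19 (SE 0.10, edgeR adjusted p 1.32e-07), from 73.5 ± 2.30 CPM to 168 ± 14.3 CPM. Rheb, the GTPase that activates mTORC1, fell by 0.19, and 3 of the 5 genes of that list were not called. Of GATOR1 and KICSTOR, which oppose the Rag GTPases, Nprl2 fell by 0.66 and Kptn by 0.48 of 6 genes, and of GATOR2, Sec13 fell by 0.41 of 5 genes. Of the 6 genes in the amino acid sensor list, Castor1 and Castor2 fell by 0.86 and 0.78 and Sesn3 rose by 0.30. The KI and Cre(−) groups of Castor2 and of Sesn3 overlapped. Of 5 substrates of mTORC1, the translation repressors Eif4ebp1 and Eif4ebp2 rose by 1.10 and 0.30. Of the MiT/TFE factors, Mitf fell by 1.09 (SE 0.15) and Tfe3 rose by 0.65 (SE 0.08). Whether reads of the fusion transcript were counted for mouse Tfe3 is not known. On log2(TPM + 1), where the median of all genes was 0.378, 22 of the 43 genes were called higher and 3 lower, and 8 of the 11 genes lower on counts were not called. All 20 calls kept their side relative to that median.

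**Figure D5:**
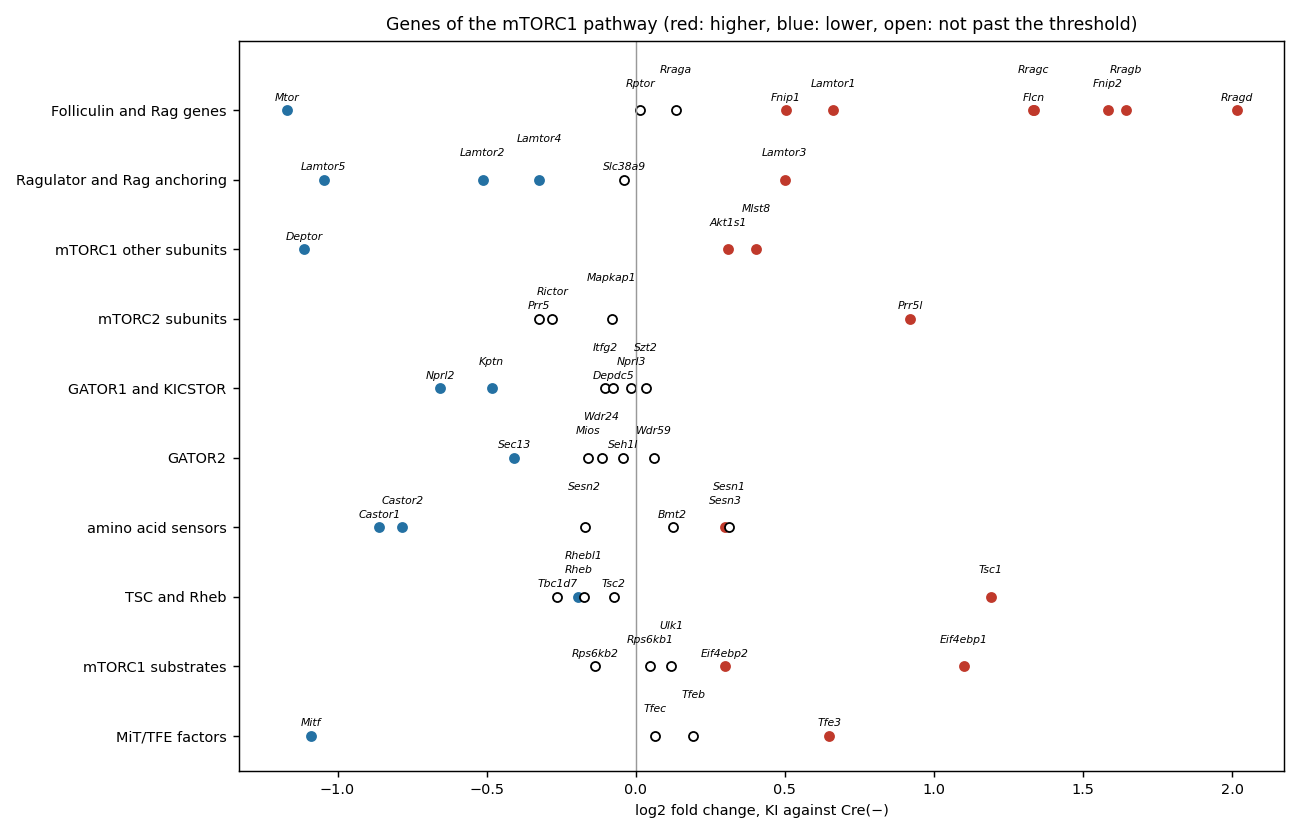
Log2 fold change in KI against Cre(−) kidneys (horizontal axis) of the 10 members (top row) and of the 43 genes in 9 lists of the pathway, where red points were called higher, blue points lower and open points were not called. The top row holds 7 red points and 1 blue point, and the lists together hold 9 red and 11 blue points.

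In Hif1α KO and in Hif2α KO against KI kidneys, edgeR called none of the 43 genes. Of all genes tested, it called 2.86% and 0.647% lower and 2.57% and 0.741% higher. At an unadjusted p under 0.05 there were 10 and 8 of the 43, shares near the 22.1% and 19.2% of all genes tested. DESeq2 called 2 and 4 of the 43. Over all genes, DESeq2 called 883 lower and 782 higher of 16334 for Hif1α KO. For Hif2α KO these were 483 and 532 of 16004. In DKO against KI kidneys, 6 were called lower and 0 higher by edgeR, beside 6.19% and 6.53% of all genes tested. The 6 were Prr5, which fell by 0.78, Tsc1 by 0.68 (edgeR adjusted p 0.00266), Eif4ebp1 by 0.64, Eif4ebp2 by 0.40, Akt1s1 by 0.36 and Lamtor3 by 0.33. Apart from Prr5, a subunit of mTORC2, each of these was also called higher in KI than in Cre(−) kidneys, a comparison that shares the KI mice. Tsc1 had 104.8 ± 16.0 CPM in DKO kidneys, between the Cre(−) and KI levels. Without KI replicate 3, DKO replicate 2 or DKO replicate 3, 2 of the 43 genes were called in each fit. Without KI replicate 3, 3 genes were called in Hif1α KO kidneys, and without KI replicate 1, 5 were called in Hif2α KO kidneys. Removing any of the other libraries gave 0 or 1 in these comparisons.

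The members also varied together between libraries. Pearson correlations of log2 CPM are given as a description, and over all 17 libraries they contain the difference between groups. With Flcn they were 0.99 for Rragc, 0.98 for both Fnip2 and Rragd, −0.87 for Mtor and −0.11 for Rptor. Over the 13 libraries with Cre, which still contain the knockout groups, Flcn correlated at 0.945 with Fnip2, 0.928 with Rragc, 0.875 with Fnip1 and 0.826 with Rragd, and at 0.159 with Rraga. With Mtor and Rptor it correlated at 0.204 and 0.467 there, opposite in sign to the values over 17 libraries. Rragb correlated most with Lamtor1, at 0.79. Among 14702 genes with a mean of at least 1 TPM, the 5 most like Flcn over 17 libraries were Irs2 (0.99), Mfsd11, Zfand5, Gga2 and Fpgt, and over the 13 libraries Plcxd2 (0.969), Sgpp1, Wdr81, Zfand5 and Samd8. For Rragd they were Gga2 (0.994), Focad, Nras, Slc15a4 and Mfsd11, and over the 13 libraries AI854703 (0.981), Repin1, Lrrc28, Vps26c and Card14. Zfand5 was the 1 gene in both lists for Flcn, and no gene was in both lists for Rragd.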

How the data were processed

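Polyadenylated RNA of 17 mouse kidneys was sequenced as TruSeq stranded libraries with single-end reads of 75 nt. Per the study's methods and the submitters' processing notes, reads were trimmed with Trim Galore 0.6.6 and cutadapt 2.5, aligned with STAR 2.7.9a and quantified with RSEM. The methods name hg38 as the alignment genome, but the files list mouse transcripts, so GRCm38 was used for positions. The authors deposited expected counts per transcript, which are estimates without normalization between libraries, and TPM, which corrects for transcript length and library total. Replicates were not pooled.

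Of 119353 transcripts, 116770 matched GENCODE M21 and held 99.04% to 99.24% of the counts of each library. Both units were summed to 35971 genes, and count sums were rounded. At these depths 3 counts correspond to 0.122 to 0.182 CPM, which covers counting error only. Genes were tested with the quasi-likelihood F test in edgeR 4.0.16 under R 4.3.3, with TMM factors, a minimum count of 10 in filterByExpr, all 17 libraries in 1 fit and Benjamini-Hochberg adjustment over 17011 genes, with a threshold of 0.05. The labels give only 1 number per title for the replicates, and each library was taken as 1 mouse. On that reading, which the labels do not state, p-values measure the spread between these mice. TPM ratios were compared by exact permutation tests (scipy 1.17.1). Promoter sequences come from RefSeq (GRCm38.p6). The fits were also run on simulated counts with far fewer changed genes than were called here. That run checks the code, and it cannot show how the normalization copes with the many changes in these kidneys.

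The members and lists were chosen with earlier results of these data known. Named are all members and, per list and comparison with KI, the called genes with the largest change, up to 3, with the 5 genes most like Flcn and like Rragd. The symbols Gatsl2 and Gatsl3 are not in GENCODE M21, which lists Castor1 and Castor2. The numbers in the sample titles did not pair mice. Alternatives were DESeq2 1.42.0, its size factors in edgeR, no filter, the compared groups alone, a replicate block, limma 3.58.1 on log2(TPM + 1) and log2(TPM + 0.1), protein-coding transcripts, mitochondrial genes left out, a minimum absolute log2 fold change of 1, Cre(−) mice by flox state, and each library left out in turn.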

Additional observations from a re-analysis of the deposited data

Results flagged for a closer look

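Rptor in Hif1α KO replicate 4 stood at 48.4 CPM, apart from the other 3 Hif1α KO kidneys at 41.9 to 43.0 CPM. Its gap to the nearest of them was 0.832 of the range of the group, just above Dixon's critical value for 4 samples. This was 1 of 20 groups examined, and chance marks about 1 in 20. Rptor was not called in any comparison on counts.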

How the results depend on the processing

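Depth limits Rragb most, at 37 to 178 counts per library. Of the values recomputed under each alternative, 2034 kept their direction and side of the threshold, 139 fell below it, 28 passed it anew and 39 changed sign. The cause of these changes was not tested. Of the 10 members, the count called between KI and Cre(−) kidneys was 8 to 9 when each library was left out in turn. It was 1 to 5 for Hif1α KO, 0 to 4 for Hif2α KO and 3 to 7 for DKO against KI kidneys. Hif1α KO against KI kidneys gave 2 with only the groups compared, 1 with the replicate block, 3 on log2(TPM + 0.1) and 0 when an absolute log2 fold change of at least 1 was required. Hif2α KO against KI kidneys gave 4 with DESeq2, 1 each with DESeq2 size factors, no filter, protein-coding transcripts or mitochondrial genes left out, and 0 each with only the groups compared, the replicate block, both TPM scales and the minimum fold change. DKO against KI kidneys gave 4 with only the groups compared, 3 on both TPM scales and 0 with the minimum fold change. With the minimum fold change, the counts against Cre(−) kidneys were 3 for Hif1α KO, 4 for Hif2α KO and 3 for DKO. Of the 43 pathway genes, leaving out a library gave 17 to 21, 0 to 3, 0 to 5 and 2 to 8 calls in the same 4 comparisons. The minimum fold change left 5 between KI and Cre(−) and 0 between DKO and KI kidneys, DESeq2 called 2 for Hif1α KO and 4 for Hif2α KO, and log2(TPM + 1) called 1 for Hif1α KO. For DKO there were 2 with only the groups compared, 3 on log2(TPM + 1) and 2 on log2(TPM + 0.1). With KI kidneys alone in place of all kidneys with Cre, the log2 differences of the ratios were 0.70, 1.67 and 1.11, each with an exact permutation p of 0.0571, the smallest that 3 against 4 allows. The mice share only numbers in their titles. Same-numbered mice of different groups correlated at −0.223 to 0.249 in their deviations from group means, with 4 of 31 pairs above 0.1, so that the replicate block is not a pairing. It called 8, 1, 0 and 6 members in the same 4 comparisons and 18, 0, 0 and 4 pathway genes. Some values changed sign. Rptor was at −0.0174 between KI and Cre(−) kidneys with mitochondrial genes left out, and −0.0059 to 0.0603 when libraries were left out. On the TPM scales it was at 0.0016 and 0.0021 for Hif1α KO and 0.0001 for Hif2α KO against KI, and 0.3979 and 0.434, 0.3961 and 0.432, and 0.3663 and 0.4 for Hif1α KO, Hif2α KO and DKO against Cre(−), and the latter 6 were called. Rraga for Hif2α KO against KI was at 0.0052 without the filter, 0.0429 and 0.0436 on the TPM scales, 0.0061 with mitochondrial genes left out and −0.0349 to 0.0229 with libraries left out. With libraries left out, it was −0.0365 to 0.0364 for DKO, and Mtor was −0.1712 to 0.0366 for Hif2α KO and −0.1734 to 0.0345 for DKO against KI. Between Hif1α KO and Hif2α KO, Rptor was at −0.0096 with the replicate block, −0.1601 with protein-coding transcripts and −0.0551 to 0.0593 with libraries left out. There Rragc was at −0.0973 and −0.0983 and Fnip2 at −0.0163 and −0.0167 on the TPM scales, and Fnip2 ranged from −0.0371 to 0.1773 with libraries left out.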
